A study of Mus musculus with 282 samples.

Results

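A set of 10 genes of glucose uptake and glycolysis was examined in single basal cells of naive and inflamed mouse prostates: Slc2a1, Hk1, Hk2, Pfkp, Pfkfb3, Aldoa, Pgk1, Eno1, Pkm and Ldha. They were taken by symbol, and all 10 have a row among the 48440 gene rows of both count tables. The cells came from male mice of the POET3 line, a transgenic line that carries ovalbumin as a prostate antigen and is used to model prostatitis, so naive and inflamed cells share this genotype. Per the labels' protocols, viable cells were stained for CD45, CD31, Sca-1 and CD49f, sorted, and read 1 cell per library. The sources used here do not give the sort gates, the age of the mice, the way inflammation was induced or the animal behind each cell. Batch 2 held 55 naive and 85 inflamed cells, and batch 3 held 64 naive and 78 inflamed cells.

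Glycolysis breaks glucose down to pyruvate in the cytosol. GLUT1 (Slc2a1) lets glucose in, hexokinases (Hk1, Hk2) trap it as glucose 6-phosphate, and phosphofructokinase (Pfkp) makes the committed step, which PFKFB3 promotes through its product fructose 2,6-bisphosphate. Aldolase (Aldoa) splits the sugar, phosphoglycerate kinase (Pgk1) and pyruvate kinase (Pkm) return ATP, enolase (Eno1) makes the substrate of pyruvate kinase, and lactate dehydrogenase (Ldha) turns pyruvate into lactate while regenerating NAD. In the prostate, basal cells line the basement membrane below the secretory luminal cells and include stem cells. Many of these genes are textbook targets of hypoxia-inducible factor 1.

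Cells needed at least 1000 genes and 50000 counts to be kept, which left 53 and 59 naive and 80 and 76 inflamed cells. Paired values are given throughout for batch 2 first and batch 3 second. The kept cells were summed by condition and batch, and the 4 sums held 50105953 to 79225330 counts. Median genes per cell were 4739 and 3432 (naive) against 4683 and 4109 (inflamed), and mitochondrial genes took a median of 2.67% and 2.26% of naive and 3.73% and 2.82% of inflamed counts. All 10 basal markers had reads (Krt5 in 91.5% to 100% of the cells of a sum), and their summed level was 8972 and 9580 CPM (reads of a gene scaled to a common library total) when naive against 13830 and 13508 CPM when inflamed. All 13 luminal markers had reads too, at 1662 and 2095 CPM (naive) against 2612 and 2397 CPM (inflamed). Of 16 leukocyte markers 13, Ptprc among them, had 0 reads, as did all 6 erythroid markers, and the 8 endothelial markers summed to at most 2.17 CPM. The fibroblast and smooth muscle list summed to 3361 to 4341 CPM, nearly all of it Dcn, with Lum, Pdgfrb, Myh11 and Des at 0 reads. The part of genes detected, mitochondrial share and basal and luminal marker levels in the values given here was not tested.

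Sequence before a start of Hk2 and of Pfkfb3 is shown because these were the 2 members with at least 2-fold higher levels in inflamed cells in both batches. Each stretch runs 5′ to 3′ upstream of a RefSeq transcription start (build GRCm38.p6), without bases that an annotated exon of the gene covers. Capitals mark ACGTG, the core letters bound by hypoxia-inducible factors, read on either strand (CACGT is its reverse complement, and the E-box CACGTG is 2 overlapping matches). The Hk2 stretch is chr6:82774455-82774704 on the minus strand and ends at the base before the gene. The Pfkfb3 stretch is chr2:11502102-11502340 on the minus strand and lies before the more downstream of the gene's RefSeq starts.
Hk2: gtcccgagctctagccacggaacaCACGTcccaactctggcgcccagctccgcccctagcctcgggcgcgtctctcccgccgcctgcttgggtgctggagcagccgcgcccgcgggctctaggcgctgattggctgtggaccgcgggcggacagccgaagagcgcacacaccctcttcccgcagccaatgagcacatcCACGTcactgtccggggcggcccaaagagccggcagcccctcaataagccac
Pfkfb3: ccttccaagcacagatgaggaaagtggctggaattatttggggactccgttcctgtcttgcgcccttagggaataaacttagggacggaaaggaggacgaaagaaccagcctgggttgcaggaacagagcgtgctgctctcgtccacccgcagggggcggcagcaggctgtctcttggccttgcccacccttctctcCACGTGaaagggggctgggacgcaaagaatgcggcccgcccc

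The matches begin 226 and 52 bases before the Hk2 start and 53 and 52 bases before the Pfkfb3 start. All 10 genes matched the RefSeq promoter table, with 18 entries in all. Within 250 bases before the start, 9 of these 18 entries, belonging to 7 of the 10 genes, held ACGTG on either strand, and some entries of a gene overlap. In a window of the same length, 16.6% of all 32851 tabulated promoters held ACGTG and 6.02% held CACGTG. A match is a description of the letters and not of binding.

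Expression in inflamed cells was compared with that in naive cells to see how inflammation alters this pathway in basal cells. Hk2 stood at 488 and 861 CPM when naive against 2692 and 3421 CPM when inflamed, and Pfkfb3 at 10.7 and 7.65 CPM against 45.1 and 43.8 CPM. Pgk1, Pfkp, Eno1, Ldha, Aldoa and Pkm were higher in inflamed cells in both batches by smaller factors. Slc2a1 and Hk1 lay on opposite sides of naive in the 2 batches.

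No member passed edgeR's quasi-likelihood test at an adjusted p under 0.05, and neither did any other of the 14713 genes tested (0%). The test used the 4 sums with batch in the model, since cells are not replicates. Its p-values measure the spread of the inflamed-to-naive difference from batch to batch, and that spread may be technical. At an unadjusted p under 0.05, edgeR had 1 member higher (Hk2), against 5.04% of all genes, and 0 members lower, against 3.23%. DESeq2 called 1 of the 10 members higher, again Hk2, against 7.13% of the 13001 genes to which it gave an adjusted p, and 0 lower, against 4.11%.

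The counts that follow describe members chosen with earlier results of these data known, and no test of the set was run. In direction, 8 of the 10 members were higher in inflamed cells in both batches, against 30.9% of all genes tested, and 0 were lower in both, against 27.6%. For the same 8, both inflamed sums lay above both naive sums, against 24.3% of all genes, and for 0 members both lay below, against 21.3%. A level at least 2-fold higher in each batch was seen for 2 members, Hk2 and Pfkfb3, against 14.6% of all genes. The median log2 fold change, inflamed over naive, was 0.70 over the 10 members and 0.10 over all genes tested, and within batches 2 and 3 it was 0.40 and 0.68 for the members and 0.05 and 0.06 for all genes. The members' median lay midway between Ldha (0.42) and Eno1 (0.98). Without Hk2 it was 0.42, as it would be without Eno1, Pgk1, Pfkp or Pfkfb3 instead. With all 10 members it depended on the sums used. Without the naive sum of batch 2 it was 0.43, close to the 0.38 of all genes in that fit. Without the inflamed sum of batch 3 it was 0.46, where all genes had -0.15. All 10 members passed the filter on low counts.

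**Figure D1:**
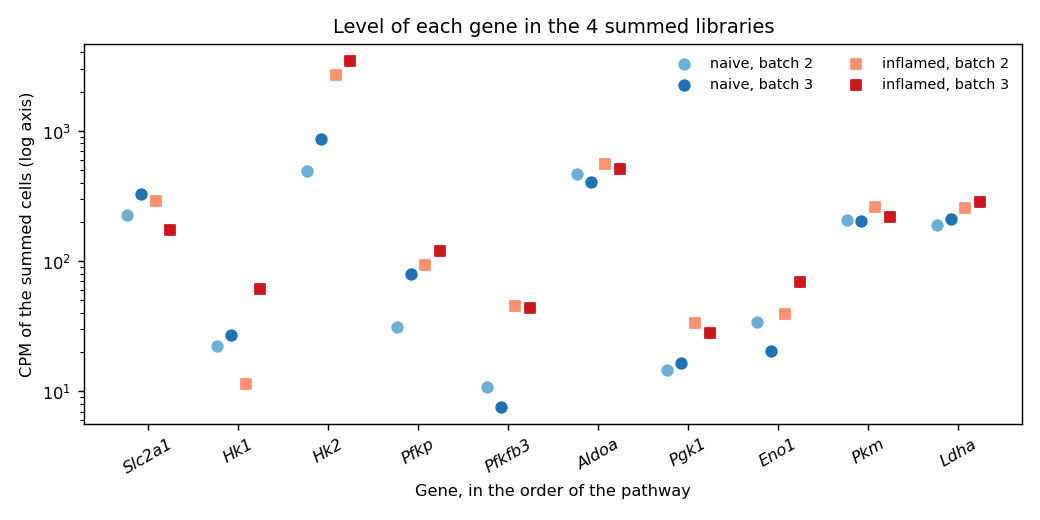
CPM (log axis) of each gene in the 4 sums of kept cells, naive as circles and inflamed as squares, in the order of the pathway. Hk2 in inflamed cells (2692 and 3421 CPM) is the highest point of the plot, and Slc2a1 and Hk1 are the only genes whose inflamed points do not both lie above the naive ones.

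**Figure D2:**
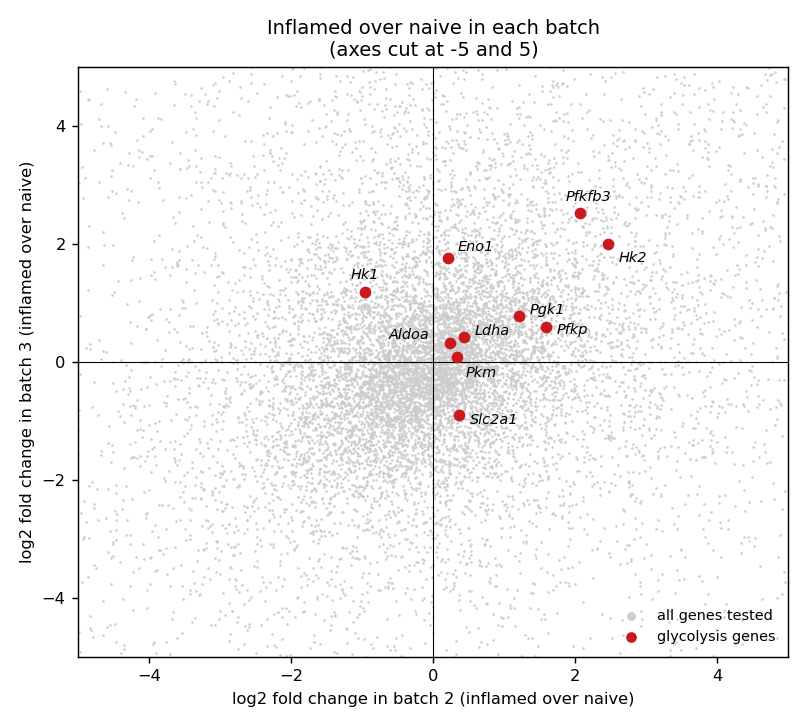
Log2 fold change, inflamed over naive, in batch 2 (x axis) and batch 3 (y axis) for every gene tested (grey) and the 10 glycolysis genes (red), with 2945 genes beyond the axes. Hk2 and Pfkfb3 lie farthest along both axes among the red points, 6 more lie above 0 on both axes, and Hk1 and Slc2a1 lie above 0 on 1 axis only.

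Slc2a1 (ENSMUSG00000028645, chr4:119108711-119137983, plus strand) encodes the glucose transporter GLUT1. It measured 226 and 326 CPM (naive) against 291 and 174.5 CPM (inflamed). Inflamed cells were 1.29-fold higher in batch 2 and 1.87-fold lower in batch 3, and the groups overlapped. The fitted log2 fold change was -0.27 ± 0.47 (SE; edgeR adjusted p = 0.956). In single cells the median was 18.5 and 2.41 CPM (naive) against 90.7 and 18.1 CPM (inflamed), and 1 naive cell held 29.6% of all Slc2a1 reads of naive batch 3. Without the top cell of each sum the ratio of inflamed to naive was 1.31 in batch 2 and 0.684 in batch 3. Thus the median cell and the sum of batch 3 differ in direction.

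Among the glucose transporters measured, scaled to exon length, Slc2a1 took 70.1% and 87.4% of the family's level in naive and 89.2% and 80.2% in inflamed cells. Slc2a4, the insulin-responsive transporter GLUT4, took 24.4% and 4.89% (naive) against 10.2% and 19.3% (inflamed). The share of Slc2a4 had no common direction over the batches.

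Hk2 (ENSMUSG00000000628, chr6:82725025-82774454, minus strand), whose promoter stretch is given above, encodes hexokinase 2, the inducible hexokinase that docks on mitochondria. Its mean was 675 ± 263 CPM (SD, n = 2 batches) in naive and 3057 ± 515 CPM (SD, n = 2) in inflamed cells. The inflamed sums were 5.51-fold and 3.97-fold higher in batches 2 and 3, and the groups did not overlap. The log2 fold change was 2.23 ± 0.28 (SE), with an unadjusted p of 0.00187 and an adjusted p of 0.568 in edgeR, where 34 of the genes tested had a lower p. DESeq2 gave a log2 fold change of 2.22 with an adjusted p of 6.18e-05. Counted together, 7 genes were at least 2-fold higher in both batches and had a mean level as high as Hk2 or higher, namely Anxa1, B2m, Clu, F3, H2-D1, mt-Co1 and Hk2 itself, a set chosen after the values were seen.

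The difference in Hk2 was also seen cell by cell. Naive cells of batch 2 ranged from 3.08 to 4904 CPM with a median of 52.1, and naive cells of batch 3 from 0 to 6762 CPM with a median of 23.4. Inflamed cells ranged from 7.18 to 16271 CPM with a median of 1632 in batch 2 and from 3.55 to 10143 CPM with a median of 2775 in batch 3. The ranges overlapped, and the medians of both inflamed sums lay above the upper quartile of both naive sums (429 and 1027 CPM).

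Of the inflamed cells, 74 of 80 in batch 2 (92.5%) and 70 of 76 in batch 3 (92.1%) exceeded the naive median of their batch. Conversely, 8 of 53 (15.1%) and 9 of 59 (15.3%) naive cells exceeded the inflamed median. Nearly every cell had some Hk2 read (100% and 96.6% of naive cells, 100% and 100% of inflamed cells), so a level of 100 CPM, chosen after the values were seen, was used to part low cells from high ones. At least 100 CPM was reached by 41.5% (exact Clopper-Pearson 95% interval 28.1% to 55.9%) and 38.98% (26.5% to 52.6%) of naive cells. The share was 85% (75.3% to 92%) and 84.2% (74.04% to 91.6%) in inflamed cells. These intervals count cells only and say nothing of animals, and 11, 5, 9 and 4 cells of naive batches 2 and 3 and inflamed batches 2 and 3 lay between 50 and 200 CPM.

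Among the cells at 100 CPM or more, the median Hk2 level was 678 and 1605 CPM (naive) against 1978 and 3479 CPM (inflamed). Inflamed cells thus had both a larger share of high cells and a higher median among them, in each batch. The single cell with the most Hk2 reads held 17.3% and 13.2% of the naive and 6.83% and 5.04% of the inflamed reads, and without it in each sum the inflamed level was 6.21-fold and 4.38-fold higher. The mitochondrial share, the basal and luminal marker levels and Krt19, a luminal and progenitor keratin (32.9 and 95.6 CPM in naive, 582 and 600.0 CPM in inflamed cells), were also higher in both inflamed sums, and their part in the Hk2 difference was not tested.

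**Figure D3:**
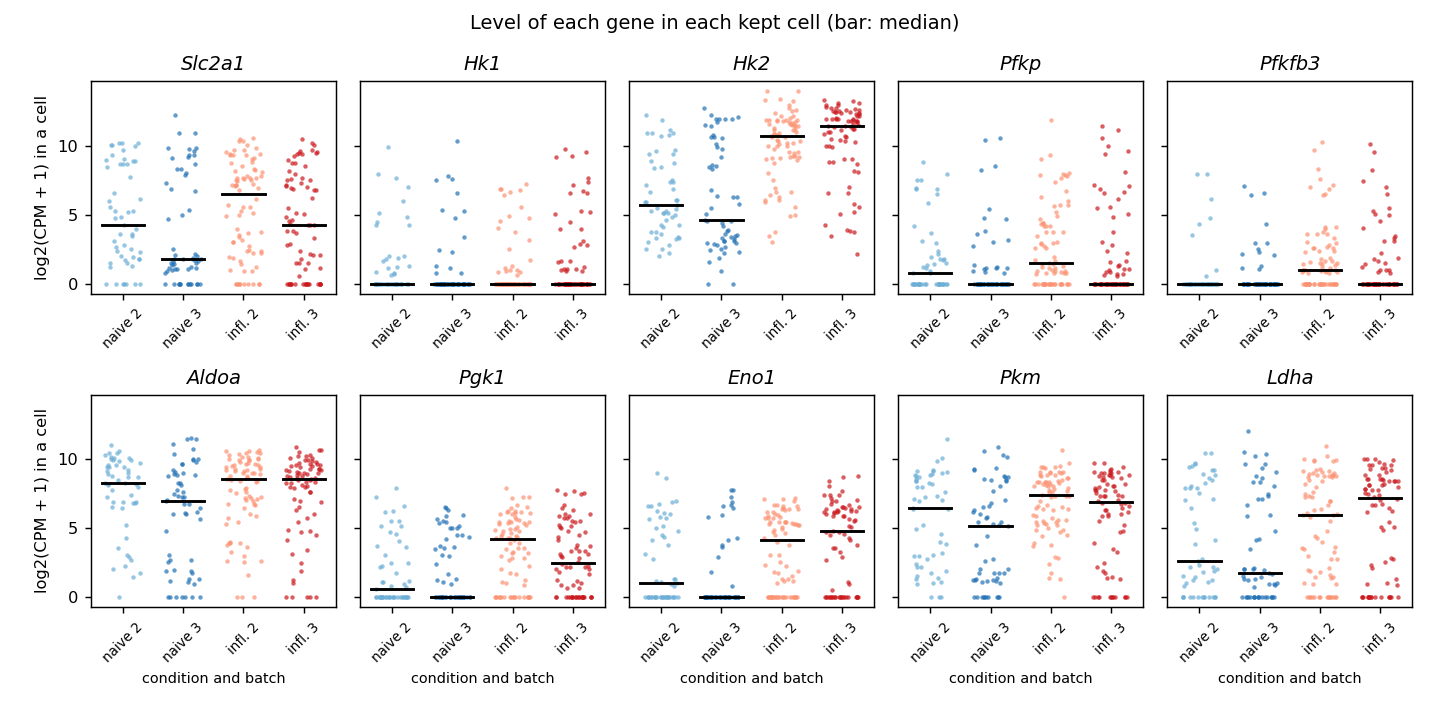
Level in every kept cell as log2(CPM + 1), 1 panel per gene, with naive cells in blue and inflamed cells in red by batch and a bar at the median. For Hk2 the inflamed cells gather near the top (medians 1632 and 2775 CPM) while most naive cells lie low (medians 52.1 and 23.4 CPM). The ranges of naive and inflamed cells overlap for every gene, Hk2 included.

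Hk1 (ENSMUSG00000037012, chr10:62268855-62379908, minus strand) encodes the constitutive hexokinase of most tissues. It was low, at 22.3 and 26.9 CPM (naive) against 11.4 and 60.98 CPM (inflamed). Inflamed cells were 1.95-fold lower in batch 2 and 2.27-fold higher in batch 3, and the log2 fold change was 0.11 ± 1.02 (SE; edgeR adjusted p = 1). A read of Hk1 was found in 41.5% and 25.4% of naive and 28.8% and 39.5% of inflamed cells. Per kilobase of exon, Hk2 made up 96.9% and 97.9% of the hexokinase level in naive and 99.7% and 98.8% in inflamed cells, and Hk1 made up 3.09% and 2.14% against 0.296% and 1.23%. In both conditions Hk2 was therefore by far the leading hexokinase by transcript level.

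Pfkp (ENSMUSG00000021196, chr13:6579768-6648777, minus strand), the platelet-type phosphofructokinase, measured 31.2 and 80.02 CPM (naive) against 93.5 and 120.6 CPM (inflamed). Both inflamed sums lay above both naive sums, by 2.99-fold in batch 2 and 1.51-fold in batch 3, with a log2 fold change of 1.09 ± 0.54 (SE; edgeR adjusted p = 0.663). Few cells carried this level, since the top cell held 29.6% and 57.04% of the naive and 50.3% and 22.6% of the inflamed reads. Without those cells inflamed levels were 2.09-fold and 2.66-fold higher. A read was found in 50.9% and 35.6% of naive and 70% and 46.1% of inflamed cells. Pfkp overlaps its neighbour Pitrm1, with which it shares 699 of its 50-base words, so its reads are uncertain to that extent.

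Of the phosphofructokinase level per kilobase of exon, Pfkp took 35.5% and 21.8% (naive) against 48.9% and 58.99% (inflamed). The liver-type Pfkl took 22.7% and 78.2% against 38.4% and 34.6%, and the muscle-type Pfkm took 41.7% and 0.023% against 12.7% and 6.38%. By this scale Pfkm led in naive batch 2 and Pfkl in naive batch 3. The lead of Pfkm depended on the scaling to exon length. In CPM, Pfkp led in naive batch 2 at 31.2, against 9.96 for Pfkl and 9.14 for Pfkm. In naive batch 3 Pfkl led on both scales. Pfkm had 1 read there, and the top cell held 57.04% of the Pfkp reads. Per kilobase, the share of Pfkp was higher in both inflamed sums than in both naive sums.

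Pfkfb3 (ENSMUSG00000026773, chr2:11471433-11554077, minus strand) makes the activator of phosphofructokinase, and its stretch before a start is shown above. Its mean was 9.18 ± 2.17 CPM (SD, n = 2) in naive and 44.5 ± 0.97 CPM (SD, n = 2) in inflamed cells. Inflamed sums were 4.20-fold and 5.71-fold higher in batches 2 and 3 and did not overlap the naive sums. The log2 fold change of 2.30 ± 0.87 (SE) had an unadjusted p of 0.0637 and an adjusted p of 0.578 in edgeR, and an adjusted p of 0.0760 in DESeq2.

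A Pfkfb3 read was found in 15.1% (95% interval 6.75% to 27.6%) and 22.03% (12.3% to 34.7%) of naive cells. In inflamed cells the share was 62.5% (50.96% to 73.1%) and 36.8% (26.1% to 48.7%). With every cell thinned to 500000 counts, the shares were 8.70% and 21.8% (naive) against 52.9% and 29.2% (inflamed). The gap between conditions was thus wide in batch 2, and in batch 3 the intervals of the 2 conditions overlapped. The level itself sat in few cells, with 65.1% and 32.2% of the naive and 42.4% and 41.8% of the inflamed reads in the top cell of each sum. Without those cells the inflamed level was 6.84-fold and 4.88-fold higher. Cells at 100 CPM or more made up 3.77% and 1.69% of naive and 8.75% and 6.58% of inflamed cells.

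Within its family, Pfkfb3 took 9.92% and 3.97% of the level per kilobase in naive and 47.8% and 33.3% in inflamed cells. Pfkfb4, which encodes another bifunctional enzyme of this family, took 35.997% and 57.2% (naive) against 0.208% and 6.96% (inflamed). Pfkfb2 took 54.1% and 38.8% against 51.8% and 50.3%. In level, Pfkfb4 was at 25.1 and 70.99 CPM (naive) against 0.127 and 5.91 CPM (inflamed), a log2 fold change of -5.54 ± 1.73 (SE; unadjusted p = 0.0374 and adjusted p = 0.568 in edgeR). These levels rest on 1416 and 3370 naive reads and on 10 and 449 inflamed reads. How the Pfkfb4 reads were spread over cells was not examined. In both batches, then, the Pfkfb3 share was higher and the Pfkfb4 share lower in inflamed cells.

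**Figure D4:**
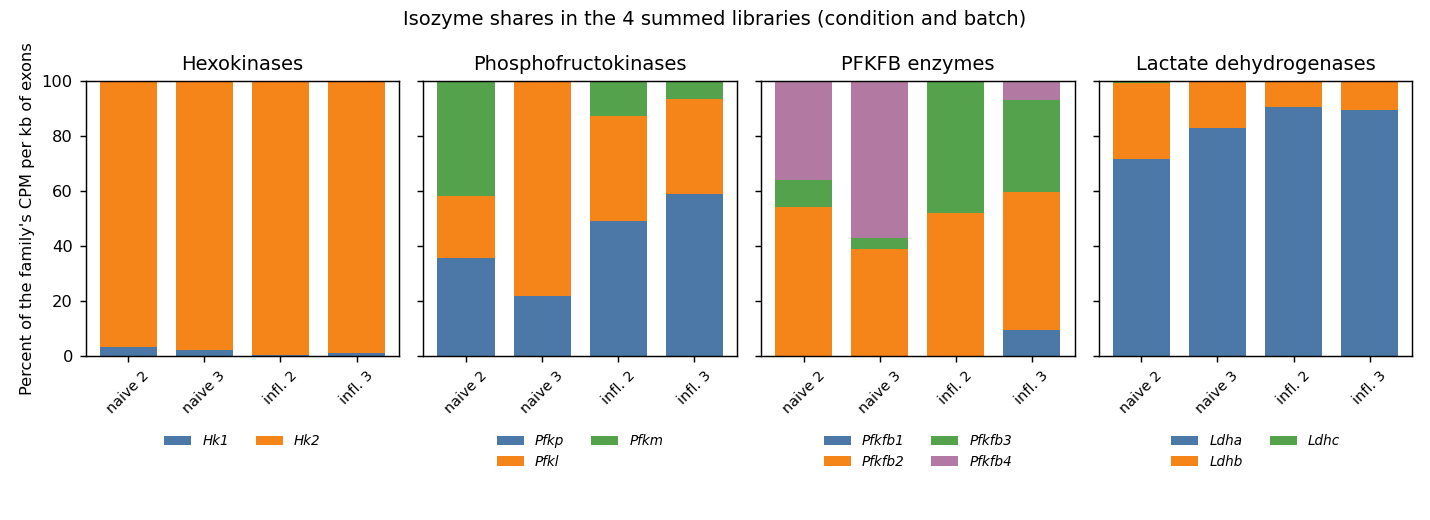
Stacked percent of each enzyme family's CPM per kilobase of exon by gene in the 4 sums. Hk2 fills at least 96.9% of the hexokinase bar in every sum, while Pfkfb3 goes from 9.92% and 3.97% of its family in naive to 47.8% and 33.3% in inflamed cells.

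Aldoa (ENSMUSG00000030695, chr7:126795234-126800751, minus strand) measured 469 and 406 CPM (naive) against 553 and 506 CPM (inflamed). The inflamed sums were 1.18-fold and 1.25-fold higher, and the log2 fold change was 0.28 ± 0.28 (SE; edgeR adjusted p = 0.877). Median cells held 311 and 127.9 CPM (naive) against 376 and 389 CPM (inflamed). Aldoa was read in 88.1% to 98.1% of the cells of a sum and made up at least 97.96% of the aldolase level.

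Pgk1 (ENSMUSG00000062070, chrX:106187100-106203699, plus strand), the first ATP-yielding enzyme of the pathway, measured 14.6 and 16.5 CPM (naive) against 33.7 and 28.2 CPM (inflamed). The inflamed sums were 2.30-fold and 1.71-fold higher, with a log2 fold change of 0.99 ± 0.91 (SE; edgeR adjusted p = 0.856). A read was found in 50.9% (95% interval 36.8% to 64.9%) and 49.2% (35.9% to 62.5%) of naive cells. The share in inflamed cells was 76.2% (65.4% to 85.1%) and 71.1% (59.5% to 80.9%). After thinning, the shares were 47.8% and 47.3% against 75.7% and 68.1%. Pgk1 was thus read in a larger share of inflamed cells in each batch, also at equal total counts per cell. Its level followed the number of genes detected in a cell (Spearman 0.34 over 268 cells, centred within condition and batch), which thinning does not equalise and whose part was not tested.

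Eno1 (ENSMUSG00000063524, chr4:150236721-150248879, plus strand), the enolase of most tissues, measured 33.9 and 20.4 CPM (naive) against 39.1 and 69.1 CPM (inflamed). The inflamed sums were 1.15-fold and 3.39-fold higher, with a log2 fold change of 0.98 ± 0.81 (SE; edgeR adjusted p = 0.826). A read was found in 54.7% (95% interval 40.4% to 68.4%) and 27.1% (16.4% to 40.3%) of naive cells and in 70% (58.7% to 79.7%) and 69.7% (58.1% to 79.8%) of inflamed cells. After thinning these shares were 45.7% and 29.1% against 75.7% and 70.8%. Eno1 was also the member whose level followed the number of genes detected in a cell most closely (Spearman 0.43 over 268 cells, centred within condition and batch), and naive batch 3 had the fewest genes per cell. Thinning does not equalise that number, and its part in the Eno1 difference was not tested.

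Pkm (ENSMUSG00000032294, chr9:59656368-59679375, plus strand), pyruvate kinase of most tissues, measured 206 and 205 CPM (naive) against 259 and 216 CPM (inflamed). The inflamed sums were 1.26-fold and 1.06-fold higher, with a log2 fold change of 0.20 ± 0.33 (SE; edgeR adjusted p = 0.949). Its median cell held 87.8 and 35.5 CPM (naive) against 168.8 and 120.1 CPM (inflamed). The table counts whole genes, so the splice forms of Pkm were not told apart.

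Ldha (ENSMUSG00000063229, chr7:46841475-46855627, plus strand) measured 190 and 212 CPM (naive) against 256 and 283 CPM (inflamed). The inflamed sums were 1.35-fold and 1.33-fold higher, close to each other, with a log2 fold change of 0.42 ± 0.32 (SE; edgeR adjusted p = 0.799). The median cell held 5.16 and 2.49 CPM (naive) against 62.6 and 147.98 CPM (inflamed), a wider gap than that of the sums. Cells at 100 CPM or more made up 37.7% and 30.5% of naive and 43.8% and 56.6% of inflamed cells. Of the lactate dehydrogenase level per kilobase, Ldha took 71.5% and 82.9% (naive) against 90.6% and 89.4% (inflamed), and Ldhb, whose product favours the reverse reaction, took 27.9% and 17.1% against 9.37% and 10.6%.

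In order of level per kilobase of exon, Aldoa led in naive batch 2 at 161.3 CPM per kb, followed by Hk2 at 81.8, Slc2a1 at 64.5, Ldha at 57.4 and Pkm at 41.2. In naive batch 3 Hk2 stood at 144.2, Aldoa at 139.6, Slc2a1 at 93.1, Ldha at 64.1 and Pkm at 40.95 CPM per kb. In inflamed cells Hk2 led at 451 and 573 CPM per kb, with Aldoa next at 190.1 and 173.8. Ldha at 77.3 and 85.6, Slc2a1 at 83.1 and 49.8 and Pkm at 51.8 and 43.2 CPM per kb followed. Pgk1, Eno1, Pfkp, Hk1 and Pfkfb3 were all at or below 15.03 CPM per kb in every sum. The ranges over the 4 sums of Slc2a1 overlapped those of Ldha and Pkm. Among the low genes, each range over the 4 sums overlapped that of its neighbour in the order Pgk1, Eno1, Pfkp, Hk1 and Pfkfb3. These ranges pool both conditions. Within the naive sums Pgk1 (6.515 and 7.34 CPM per kb) lay above Eno1 (6.30 and 3.79). Hk1 (2.61 and 3.15) lay above Pfkfb3 (1.42 and 1.01) there, and in the inflamed sums both pairs overlapped.

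Several members have retrocopies, processed gene copies elsewhere in the genome that share whole reads with the parent gene. Reads were 50 bases long, and the sources used here do not say how a read that fits several places was counted. Of the distinct 50-base words in the annotated transcripts, 53.9% of those of Pgk1, 25.99% of Eno1 and 25.8% of Pkm occur also in another annotated gene, against 9.26% for Ldha, 5.13% for Aldoa, 5.10% for Pfkp, 1.54% for Slc2a1, 1.22% for Hk1, 0.376% for Pfkfb3 and 0% for Hk2. The levels of Pgk1, Eno1 and Pkm are therefore uncertain in part, and those of Hk2 and Pfkfb3 hardly touched by copies.

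The longest coding stretch shared letter for letter was sought between a member and a single named copy. It was 1250 of the 1251 coding bases of Pgk1 with Pgk1-rs7 and the first 725 of 1302 of Eno1 with Gm4735. For Pkm with Gm6560 it was 195 of 1593, and for Aldoa with Aldoart1 86 of 1092. Other copies were not searched in this way, and a longer stretch may exist in them. Eno1b shares 1395 of the 50-base words of Eno1, against 1044 for Gm4735. The Aldoa stretch and the first 100 bases of the Pkm stretch are printed to show what a read of 50 bases cannot assign. They are reference transcript sequences of GENCODE on GRCm38, begin at coding bases 499 and 1237, and have no capitals since every base is shared.
Aldoa and Aldoart1: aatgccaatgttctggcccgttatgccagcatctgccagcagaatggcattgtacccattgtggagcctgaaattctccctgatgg
Pkm and Gm6560: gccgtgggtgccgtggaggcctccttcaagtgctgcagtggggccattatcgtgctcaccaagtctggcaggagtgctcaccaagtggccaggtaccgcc

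Of the reads counted for a gene and its retrocopies together, the retrocopies of Aldoa held 12.05% and 12.6% (naive) against 12.4% and 12.1% (inflamed). Those of Pkm held 17.9% and 17.5% against 16.98% and 18.6%, and those of Eno1 held 15.2% and 14.2% against 15.7% and 15%. Ldha had 3.99% and 1.66% on retrocopies in naive and 1.64% and 1.49% in inflamed cells, and Pgk1 at most 0.418%. For Aldoa, Pkm and Eno1 the ranges of the conditions overlapped. Gapdh, which acts between aldolase and Pgk1 and is not among the 10 genes, has many such retrocopies, which held 69.6% and 76.2% of its joint reads in naive and 79.5% and 82.6% in inflamed cells. Its own row held just 6.32 and 6.75 CPM (naive) against 5.49 and 4.05 CPM (inflamed) (before scaling factors), so no level of Gapdh can be read from it. With the retrocopies' reads added to each parent gene, the members' median log2 fold change was 0.70, as without them. Slc2a1, Hk1, Hk2, Pfkp and Pfkfb3 had no retrocopies to add, and those of Pgk1 added almost no reads. The sum cannot restore reads that may have been left uncounted because they fit several places, so it does not settle the levels of Pgk1, Eno1 and Pkm.

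**Figure D5:**
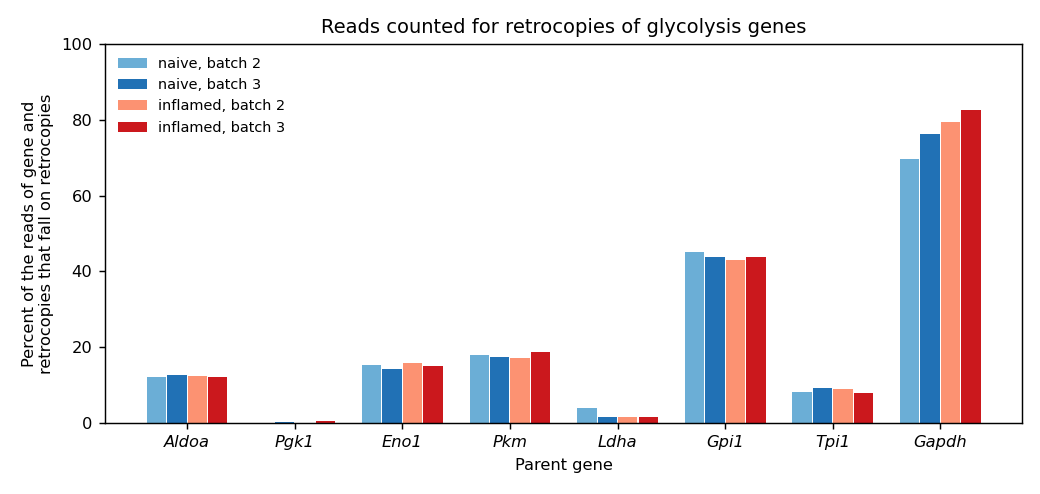
Percent of the joint reads of a parent gene and its retrocopies that were counted for the retrocopies, in the 4 sums. Aldoa, Eno1 and Pkm stay between 12.05% and 18.6% in every sum, and Gapdh lies at 69.6% to 82.6%.

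From cell to cell the members moved with each other only weakly. Over the 268 kept cells, centred within condition and batch, the 45 pairs of members had Spearman correlations of log2(CPM + 1) between -0.13 (Hk1 with Pfkp) and 0.24 (Pgk1 with Eno1), with a median of 0.07. Such values in sparse counts are no finding. The mean of the 10 members correlated with the number of genes detected per cell (Spearman 0.51), which every gene of a cell shares. Of 6971 genes detected in at least 20% of cells (median correlation 0.10), the 5 most like that mean were Gm6560 (0.50), Gm4735 (0.45), Gm16459 (0.43), Gm5276 (0.41) and Aldoart1 (0.40). Of these, Gm6560 is a retrocopy of Pkm, Gm4735 one of Eno1, and Gm5276 and Aldoart1 are copies of Aldoa, all sharing reads with a member.

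With each cell thinned to 500000 counts, the median number of members with a read per cell was 6 and 5 in naive and 7.5 and 7 in inflamed cells. The summed level of all 10 members in the median cell was 1200 and 1753 CPM (naive) against 3470 and 4222 CPM (inflamed). Without Hk2 it was 1098 and 1019 CPM against 1286 and 1395 CPM. The gap between conditions in this median was thus far smaller without Hk2.

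Other genes of glycolysis were taken from a list that holds no member. Of its 31 genes 16 passed the filter on low counts. None passed edgeR's adjusted test. At an unadjusted p under 0.05 edgeR had 0 higher and 1 lower (5.04% and 3.23% of all genes tested), the Pfkfb4 described above. In both batches 3 were higher and 5 lower (30.9% and 27.6% of all genes tested), with Eno3 and Gckr at 0 reads in both sums of batch 3, and the median log2 fold change was -0.15 (0.10 over all genes tested). The most abundant were Gpi1, the isomerase after hexokinase, at 89.9 and 119.6 CPM (naive) against 162.97 and 191.1 CPM (inflamed), Tpi1, the triose phosphate isomerase, at 100.4 and 75.9 against 73.6 and 66.4 CPM, and Pfkfb2 at 56.1 and 71.7 against 46.96 and 63.5 CPM. Of the joint reads of Gpi1 and its retrocopy, 42.9% to 45.2% fell on the retrocopy.

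Of 19 genes for the fate of lactate and pyruvate, 17 passed the filter. In both batches 4 were higher and 7 lower (30.9% and 27.6% of all genes tested), and the median log2 fold change was -0.29. At an unadjusted p under 0.05 edgeR had 1 higher and 0 lower (5.04% and 3.23% of all genes tested). The one was Slc16a7, the monocarboxylate carrier MCT2, at 8.29 and 1.43 CPM (naive) against 271 and 235 CPM (inflamed), a log2 fold change of 6.18 ± 0.91 (SE; unadjusted p = 0.0033 and adjusted p = 0.568 in edgeR). Bsg, the chaperone of related carriers, measured 376 and 269 CPM (naive) against 176.2 and 313 CPM (inflamed). Pdha1 of the pyruvate dehydrogenase complex measured 245 and 234 against 204 and 188.1 CPM, and Dld, a subunit of the same complex, 123.9 and 84.2 against 176.9 and 136.8 CPM.

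All 8 genes of the pentose phosphate pathway passed the filter, with 0 past an unadjusted p of 0.05 in edgeR. In both batches 4 were higher and 0 lower (30.9% and 27.6% of all genes tested). The 4 include H6pd, with 2 reads in naive batch 3, and Rpia, with 4 reads in naive batch 2. The median log2 fold change was 1.03 (0.10 over all genes tested). The most abundant of the 8 genes did not follow that median. Taldo1, transaldolase, measured 118.6 and 116.8 CPM (naive) against 166.2 and 93.1 CPM (inflamed), Tkt, transketolase, 49.5 and 29.9 against 34.7 and 33.5 CPM, and Rpe 61.7 and 4.23 against 39.8 and 19.3 CPM.

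All 18 genes of the tricarboxylic acid cycle passed the filter. In both batches 5 were higher and 3 lower (30.9% and 27.6% of all genes tested), and the median log2 fold change was 0.08. At an unadjusted p under 0.05 edgeR had 1 higher and 0 lower (5.04% and 3.23% of all genes tested). That one, Ogdh of the oxoglutarate dehydrogenase complex, measured 83.04 and 111.1 CPM (naive) against 231 and 198 CPM (inflamed) (log2 fold change 1.15 ± 0.40 (SE), unadjusted p = 0.0498 and adjusted p = 0.568 in edgeR). The malate dehydrogenases Mdh2 (414 and 747 against 788 and 492.5 CPM) and Mdh1 (285 and 460 against 437 and 349 CPM) overlapped between conditions, as did Idh3g (229.9 and 138.6 against 199.1 and 156.2 CPM).

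Targets of the hypoxia response outside glycolysis were mixed. All 18 passed the filter. In both batches 6 were higher and 6 lower (30.9% and 27.6% of all genes tested), and the median log2 fold change was 0.44. At an unadjusted p under 0.05 edgeR had 1 higher and 1 lower (5.04% and 3.23% of all genes tested). P4ha2, a collagen prolyl hydroxylase, measured 0.0709 and 0.253 CPM in naive (4 and 12 reads) and 5.14 and 15.7 CPM in inflamed cells. Higd1a, a mitochondrial protein, measured 79.4 and 46.3 against 21.8 and 8.02 CPM (log2 fold change -2.20 ± 0.74 (SE), unadjusted p = 0.0453 and adjusted p = 0.568 in edgeR). The most abundant, the peptide hormone gene Adm, measured 600.4 and 837 CPM (naive) against 513 and 483 CPM (inflamed), Ndrg1 145.8 and 272 against 284 and 267 CPM, and the histone demethylase gene Kdm3a 119.4 and 158.04 against 253.9 and 133.6 CPM.

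Of 19 transcription factors and sensors that act on glycolysis 18 passed the filter. In both batches 4 were higher and 6 lower (30.9% and 27.6% of all genes tested), and the median log2 fold change was -0.47. At an unadjusted p under 0.05 edgeR had 1 higher and 1 lower (5.04% and 3.23% of all genes tested). Epas1, which encodes HIF-2 alpha, measured 31.7 and 32.4 CPM (naive) against 129.8 and 92.6 CPM (inflamed), a log2 fold change of 1.77 ± 0.52 (SE; unadjusted p = 0.0314 and adjusted p = 0.568 in edgeR). Txnip, which restrains glucose uptake, measured 237 and 312 against 102.8 and 154.7 CPM, a log2 fold change of -1.11 ± 0.34 (SE; unadjusted p = 0.035 and adjusted p = 0.568 in edgeR). Hif1a measured 359 and 493 against 661 and 605 CPM, Nfe2l2, the oxidative stress regulator, 1064 and 1252 against 814 and 710 CPM, and Stat3 222 and 618 against 330 and 262 CPM. None of these lists had a gene past edgeR's adjusted test.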

How the data were processed

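The authors deposited unnormalised read counts by gene for each cell, 1 table for each of the 2 batches. TopHat2, HTSeq, R 3.4.1, Seurat 1.4 and the build GRCm38.p6 are named without roles, per the submitters' processing notes. Read strand and the handling of reads with several positions are not stated in the sources used here. A count is a read, since no molecular identifiers were used. Symbols matched 48058 of 48440 identifiers (GENCODE M21). There were 0 rows naming no gene, 0 pairs of identical cells and 0 shared well labels. No doublet caller was run.

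Cells with at least 1000 genes and 50000 counts were kept (268 of 282), and their counts were summed by condition and batch. The 4 sums were tested with edgeR 4.0.16 (R 4.3.3; quasi-likelihood F test, TMM factors, filterByExpr, batch in the model, 1 residual and 2.66 prior degrees of freedom), with Benjamini-Hochberg adjustment over all 14713 genes tested. DESeq2 1.42.0 was an alternative. CPM values were computed from the counts with TMM-corrected library sizes, and cell values with the cell's own total. The labels name the batch, which pairs the sums. Over 14713 genes, naive and inflamed sums deviated by batch with a correlation of -0.01. Shares of cells carry exact 95% Clopper-Pearson intervals, which cover counting of cells only. Cells too shallow to be thinned to 500000 counts numbered 25 (7 and 4 naive, 10 and 4 inflamed in batches 2 and 3).

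Retrocopies were processed pseudogenes, with Aldoart1, Aldoart2 and Eno1b, that share at least 50 words of 30 bases with the gene. Members and lists were chosen with earlier results of these data known. All members were named. Of each other list the text names the genes with an unadjusted p under 0.05 and the 3 most abundant, and, for likeness, the 5 genes with the highest correlation with the members' mean.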

Additional observations from a re-analysis of the deposited data

Results flagged for a closer look

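Slc2a1 and Hk1 had opposite directions in the 2 batches. The log2 fold change of Slc2a1, batch 3 minus batch 2, was -1.27, and that of Hk1 was 2.14. These differences between batches were not tested, since each batch holds 1 sum per condition.

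Among the 14 cells left out for low counts or few genes, the inflamed cells had Hk2 and Pfkfb3 above both naive sums and above the naive cells left out. In the 7 inflamed cells Hk2 stood at 1775 CPM (265 of 149289 reads), and in the 7 naive cells at 271 CPM (53 of 195424 reads). Pfkfb3 stood at 80.4 CPM in the inflamed cells (12 reads) and 5.12 CPM in the naive cells (1 read). These cells entered the sums only in the alternative that used all deposited cells.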

How the results depend on the processing

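Over the 14 alternatives with a test, all but 4 of the 140 member values kept their direction and their side of the 0.05 threshold. Leaving out the top cell of each sum gave 10 values with no test, of which 0 reversed. DESeq2 called 1461 genes and 1 member (Hk2), where edgeR called 0 and 0, and the cause was not tested. Under every edgeR alternative 0 genes passed the adjusted test, with 366 to 1428 higher and 297 to 823 lower at an unadjusted p under 0.05. Leaving out 1 sum in turn, with batch out of the model and the lone sum assumed to vary like the other condition, moved the members' median log2 fold change from 0.43 (without naive batch 2) to 1.00 (without inflamed batch 2), with 0.46 without inflamed batch 3 and 0.74 without naive batch 3. The median of all genes moved too, to 0.38, -0.19, -0.15 and 0.29 in the same fits. Slc2a1 ranged from -0.65 to 0.10 and reversed without naive batch 3 (0.09) and without inflamed batch 3 (0.10). Hk1 ranged from -1.08 (without inflamed batch 3) to 1.32. The other 8 members were never reversed. Hk2 stayed between 1.83 and 2.69 and Pfkfb3 between 2.10 and 2.54. The lowest and highest adjusted p of Hk2 in edgeR were 0.115 and 0.80. Without batch as a block, the unpaired fit gave a members' median of 0.75 and Hk2 at 2.18, with 0 genes called, and it changed no call. The median of all genes was 0.14 with upper-quartile scaling, 0.05 with library size only, 0.21 with no gene filter and 0.01 with genes read in at least 20% of cells. A level of 100 CPM and the sum with retrocopies were chosen after seeing the data. Single cells held up to 65.1% of a sum's reads of Pfkfb3, which limits its precision.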
